A study of Mus musculus with 6 samples.

Results

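Aldehyde dehydrogenases are enzymes that oxidise aldehydes to carboxylic acids with NAD or NADP, and Aldh2, the gene removed in this study, encodes the mitochondrial enzyme known for clearing acetaldehyde and the reactive aldehydes of lipid peroxidation. The family was followed here as 10 genes, taken by symbol: Aldh2, Aldh1b1, Aldh3a2, Aldh3b1, Aldh4a1, Aldh6a1, Aldh7a1, Aldh9a1, Aldh16a1 and Aldh18a1. All 10 were found among the 16871 gene numbers of the data, in every library, and all 10 passed the filter on low counts. The RNA came from macrophages grown out of the bone marrow of C57BL/6 mice (age 8 weeks) over a culture of 7 days, followed by treatment with oxLDL, oxidised low-density lipoprotein, which macrophages take up in atherosclerotic plaques. The control group, LKO, had 3 libraries from LDL receptor knockout cells, and the double knockout group, DKO, had 3 libraries from cells lacking both ALDH2 and the LDL receptor. Both groups therefore carried the LDL receptor knockout and received oxLDL, and there was no group without either. The labels do not say how the alleles were made, in which cells they act, how much oxLDL was given or whether each library came from its own animal, and the p-values refer to the spread between libraries, which may be technical.

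The members act in separate places. ALDH2 and ALDH1B1, its closest relative in the family, both sit in mitochondria and both take acetaldehyde. ALDH4A1, ALDH6A1 and ALDH18A1 are mitochondrial enzymes of amino acid metabolism, ALDH7A1 works in lysine breakdown, ALDH9A1 in carnitine synthesis, ALDH3A2 on long-chain fatty aldehydes in the endoplasmic reticulum, and ALDH3B1 on lipid aldehydes at membranes. Aldehydes such as 4-hydroxynonenal arise when the lipids of oxLDL are oxidised, and oxidation by ALDH enzymes, reduction by aldo-keto reductases and conjugation to glutathione are the usual routes of their removal.

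Libraries held between 10760625 and 10987584 expected counts, the authors' estimates of reads per gene. All 10 macrophage markers examined passed the count filter, led by Lyz2 (6105 ± 337 FPKM in LKO, 7616 ± 580 in DKO, SD over 3 libraries each) and Adgre1 (1938 ± 95.8 and 1755 ± 31.8), and their summed level lay between 9997 and 10705 FPKM in LKO and between 11182 and 12356 in DKO. FPKM are fragments scaled to transcript length and to the size of the library, a scale on which levels of different genes can be compared. Markers of other marrow cells also moved between the groups. Neutrophil markers fell in 7 of 10 tested members (summed level 552 to 614 FPKM in LKO, 358 to 398 in DKO), B and T lymphocyte markers fell in 4 of 5 (103 to 115, then 80.3 to 87.7), and stromal markers rose in 6 of 8 (41.2 to 47.0, then 67.8 to 92.4). These counts are of markers with an edgeR adjusted p under 0.05, and over all genes tested 6.88% fell and 7.42% rose. Erythroid markers summed to at most 0.900 FPKM in a library. That sum rests on Hba-a1, Alas2 and Klf1, since Hba-a2, Hbb-bs and Hbb-bt were listed in no library. The part of these cells in the results that follow was not tested, and in bulk RNA fewer cells of a type and less RNA per cell cannot be told apart.

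Aldh2 (NCBI gene 11669) was by far the most abundant member in LKO and fell in DKO to the level of the minor members. Its 3 LKO libraries held 248.64, 238.56 and 235.61 FPKM, from 6948, 6645 and 6511 expected counts. The 3 DKO libraries held 7.00, 7.06 and 7.34 FPKM, from 203, 212 and 212 counts. No library came near the other group, and the spread within each was small. The mean went from 241 ± 6.83 to 7.13 ± 0.181 FPKM (SD, n = 3), so 2.96% of the LKO level was left, and the log2 fold change was −5.01 with a 95% interval from −5.12 to −4.89 (edgeR adjusted p = 4e-24). By exact permutation of the FPKM values (two-sided) p was 0.1, and no smaller value can be had from 3 libraries a group.

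The signal left in DKO was not at the limit of detection. In LKO, Aldh2 ranked 274th of all genes by mean FPKM, and in DKO it ranked 6713th. Both RefSeq transcripts of Aldh2 are pooled in the deposited gene value, with a length averaged over them that was 2549 to 2563 bases in LKO and 2631 to 2735 bases in DKO. Because FPKM divide by that length, the ratio of mean FPKM was 33.8-fold, against 32.1-fold from the counts. Gene-level values cannot show which exons the remaining reads came from.

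**Figure D1:**
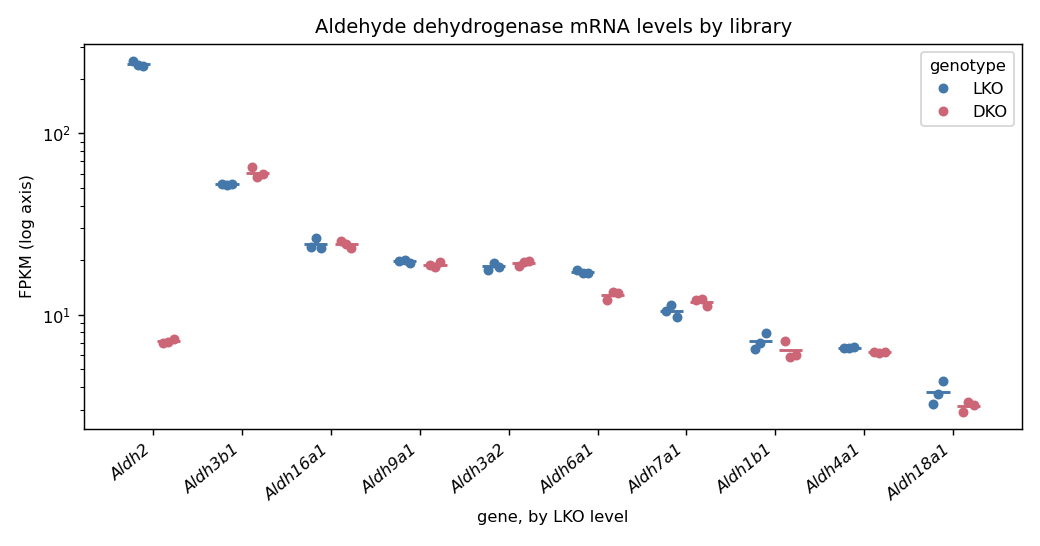
FPKM (vertical log axis) of the 10 aldehyde dehydrogenase genes in each library, ordered by their LKO level; points are libraries, blue for LKO and red for DKO, and short lines are means of 3. Aldh2 drops from 241 to 7.13 FPKM, while the other genes change far less, among them Aldh6a1 (17.2 to 12.9) and Aldh3b1 (52.4 to 60.8).

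Across all genes, 1689 of 11809 tested (14.3%) passed an edgeR adjusted p of 0.05, 876 (7.42%) higher and 813 (6.88%) lower in DKO. Of the 10 members 3 passed, 1 higher (Aldh3b1) and 2 lower (Aldh2 and Aldh6a1), so that beside the deleted gene 2 of 9 moved. DESeq2 called the same 3 genes. The median log2 fold change of the members was −0.06, beside 0.00 over all genes tested. The FPKM of the groups did not overlap in 4 members (Aldh2, Aldh3b1, Aldh6a1 and Aldh4a1), a pattern found in 29.6% of the genes tested.

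**Figure D2:**
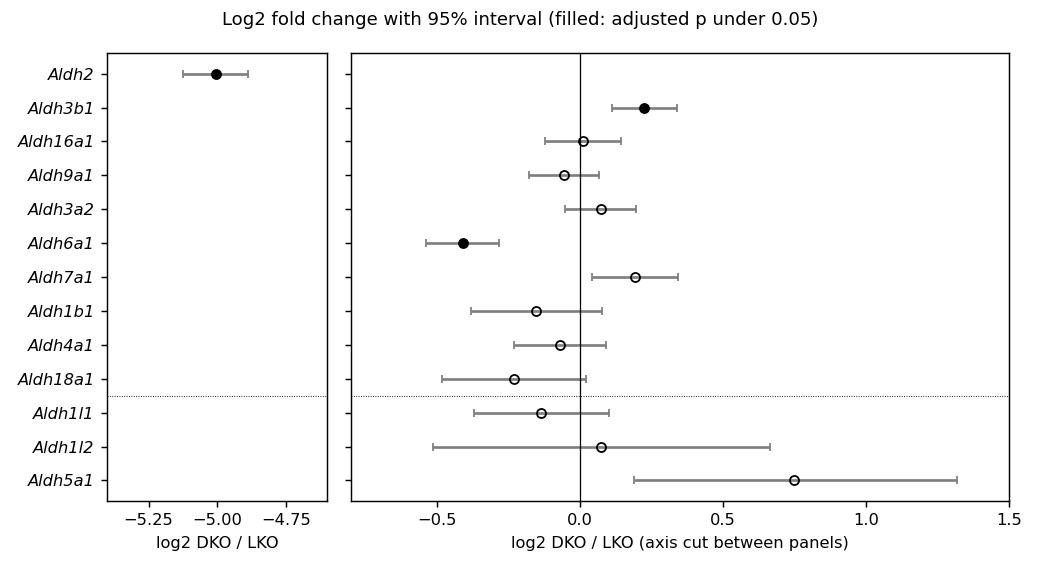
Log2 fold change of DKO over LKO (horizontal axis, cut between the panels) with its 95% interval for the 10 genes and, under the dotted line, for 3 further family genes that passed the count filter; filled points have an edgeR adjusted p under 0.05. Aldh2 stands alone at −5.01, Aldh6a1 at −0.41 and Aldh3b1 at 0.22, and the interval of Aldh1b1 spans 0.

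Of Aldh1b1, Aldh4a1, Aldh6a1 and Aldh18a1, the members counted here as mitochondrial beside Aldh2, none rose. Aldh7a1 was not counted in this set, and its log2 fold change was 0.19 (95% interval 0.04 to 0.34, edgeR adjusted p = 0.0839). Aldh1b1 (NCBI gene 72535), the closest relative of Aldh2, had 6.47, 7.01 and 7.94 FPKM in LKO and 7.22, 5.87 and 6.03 in DKO. The groups overlapped, and 2 of the 3 DKO libraries lay below every LKO library. Its log2 fold change was −0.15 with a 95% interval from −0.38 to 0.08 (edgeR adjusted p = 0.426). In DKO, Aldh1b1 and the remaining Aldh2 reads stood at overlapping levels, 5.87 to 7.22 against 7.00 to 7.34 FPKM.

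Aldh6a1 (NCBI gene 104776), the methylmalonate semialdehyde dehydrogenase of valine breakdown, was the one other member that fell. It stood at 17.65, 17.05 and 17.01 FPKM in LKO (664, 636 and 630 counts) and at 12.00, 13.44 and 13.20 in DKO (454, 506 and 497 counts). Every DKO library was below every LKO library. Aldh6a1 fell by 0.41 on the log2 scale, to 0.753 of the LKO level, with a 95% interval of the log2 change from −0.54 to −0.28 (edgeR adjusted p = 6.53e-05). The call held in each of the 13 alternative fits, with log2 values between −0.44 and −0.36.

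Proline and glutamate enzymes of the family did not pass. Aldh4a1 (NCBI gene 212647), which turns pyrroline-5-carboxylate into glutamate, had 6.58, 6.53 and 6.61 FPKM in LKO and 6.22, 6.17 and 6.25 in DKO. The groups were apart, yet the difference was small, with a log2 fold change of −0.07 (95% interval −0.23 to 0.09, edgeR adjusted p = 0.641). Its counts varied with an SD of 2.08 in LKO and 1.73 in DKO, below the 15.5 and 15.2 that counting error alone gives at this depth. Aldh18a1 (NCBI gene 56454), which makes pyrroline-5-carboxylate from glutamate and was the lowest member, had 3.23, 3.67 and 4.31 FPKM in LKO and 2.93, 3.33 and 3.20 in DKO. These ranges overlapped, and the log2 fold change was −0.23 (95% interval −0.48 to 0.02, edgeR adjusted p = 0.239). Aldh1b1, Aldh4a1, Aldh6a1 and Aldh18a1, the members counted here as mitochondrial beside Aldh2, were also summed. They came to 34.7 ± 1.04 FPKM in the LKO libraries and to 28.6 ± 0.226 in those of DKO (SD, n = 3). Within that sum, Aldh6a1 alone went from a mean of 17.2 to 12.9 FPKM, and Aldh1b1, Aldh4a1 and Aldh18a1 did not pass.

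Aldh3b1 (NCBI gene 67689), the membrane-associated enzyme for lipid aldehydes, was the one member that rose. It had 52.56, 51.75 and 52.84 FPKM in LKO and 65.07, 57.17 and 60.02 in DKO. All DKO libraries were above all LKO libraries, and DKO replicate 1 was the highest. The rise was 1.17-fold, a log2 fold change of 0.22 with a 95% interval from 0.11 to 0.34 (edgeR adjusted p = 0.00622). Without DKO replicate 1 the log2 value was 0.17 and the edgeR adjusted p was 0.0582, which ends the call, and limma without a filter on low values gave an adjusted p of 0.0706. Its paralogs contributed little: Aldh3b3 had 1.10 counts in LKO replicate 3 and none elsewhere, and Aldh3b2 was listed in no library. The fractional 1086.9 counts of Aldh3b1 in LKO replicate 3 show that a small part of its reads was divided between genes there.

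The remaining members did not pass. Aldh7a1 (NCBI gene 110695), which oxidises the semialdehyde of lysine breakdown, had 10.45, 11.28 and 9.75 FPKM in LKO and 12.07, 12.26 and 11.14 in DKO. The DKO libraries tended to be higher, but the groups overlapped and the log2 fold change of 0.19 (95% interval 0.04 to 0.34) did not pass after adjustment over all genes (edgeR adjusted p = 0.0839). Aldh3a2 (NCBI gene 11671), the fatty aldehyde dehydrogenase, had 17.69, 19.39 and 18.46 FPKM in LKO and 18.67, 19.48 and 19.81 in DKO, with a log2 fold change of 0.07 (95% interval −0.05 to 0.20, edgeR adjusted p = 0.496). Its DKO range began inside the LKO range. Aldh9a1 (NCBI gene 56752), of carnitine synthesis, had 19.90, 19.97 and 19.39 FPKM in LKO and 18.80, 18.25 and 19.56 in DKO, with a log2 fold change of −0.06 (95% interval −0.18 to 0.07, edgeR adjusted p = 0.621). Aldh16a1 (NCBI gene 69748), a member of uncertain enzyme activity, was the most even, with a mean of 24.5 FPKM in both groups (SD 1.79 in LKO and 1.09 in DKO, n = 3). Its log2 fold change of 0.01 had a 95% interval from −0.12 to 0.14, and its sign turned when single libraries were left out.

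The order of the levels changed mainly at Aldh2. In LKO it led with 241 FPKM, followed by Aldh3b1 (52.4), Aldh16a1 (24.5), Aldh9a1 (19.8), Aldh3a2 (18.5), Aldh6a1 (17.2), Aldh7a1 (10.5), Aldh1b1 (7.14), Aldh4a1 (6.57) and Aldh18a1 (3.74). Neighbours in that order did not overlap between libraries except Aldh9a1 with Aldh3a2 and Aldh1b1 with Aldh4a1. In DKO, Aldh3b1 led with 60.8 FPKM and Aldh2 took place 7, and the pairs whose libraries overlapped were Aldh3a2 with Aldh9a1, Aldh6a1 with Aldh7a1, Aldh2 with Aldh1b1 and Aldh1b1 with Aldh4a1.

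Summed over the 10 genes, ALDH mRNA was less than in LKO by about the amount of Aldh2. The sum was 406.73, 401.82 and 395.38 FPKM in the LKO libraries and 175.51, 167.71 and 169.91 in the DKO libraries. Aldh2 made up 60.0% ± 0.960 of it in LKO and 4.17% ± 0.169 in DKO (SD, n = 3), and the share of Aldh3b1 went from 13.1% ± 0.269 to 35.5% ± 1.5. Without Aldh2, the other members summed to 160 ± 2.64 FPKM in LKO and 164 ± 4.10 in DKO, and the ranges of the libraries overlapped (158.09 to 163.26, and 160.65 to 168.51). A sum of FPKM is a relative mRNA level, scaled to transcript length and library size, and does not measure enzyme activity.

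**Figure D3:**
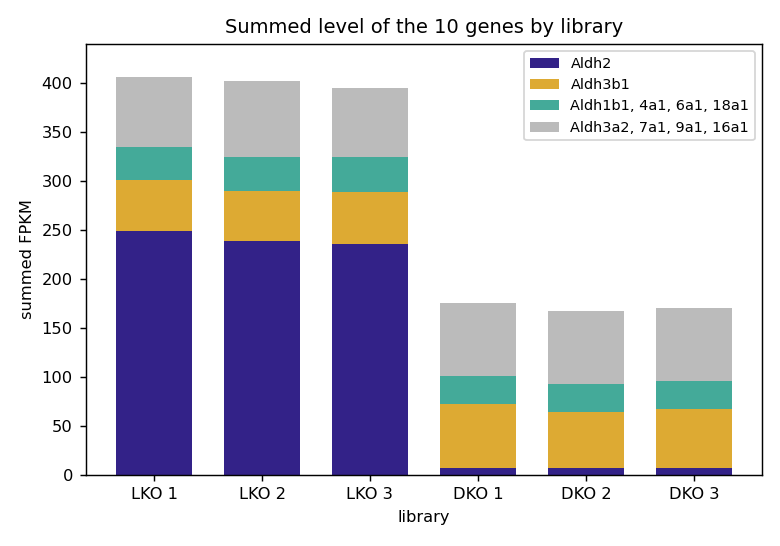
Summed FPKM (vertical axis) of the 10 genes in each library. The stack shows Aldh2, then Aldh3b1, then Aldh1b1, Aldh4a1, Aldh6a1 and Aldh18a1 together, then the rest. The LKO libraries reach 395.38 to 406.73 and the DKO libraries 167.71 to 175.51, and the stack without Aldh2 is of like height in both groups.

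The rest of the mouse family was low or not listed. Of 11 further ALDH genes, 8 had a read in some library and 3 passed the count filter: Aldh1l1, the cytosolic folate enzyme, its mitochondrial relative Aldh1l2, and Aldh5a1, which ends GABA breakdown. None of the 3 passed the test. Aldh5a1 had 0.210, 0.290 and 0.230 FPKM in LKO (13, 18 and 14 counts) and 0.370, 0.400 and 0.450 in DKO (23, 25 and 28 counts). Its groups did not overlap, and the log2 fold change was 0.75 with a 95% interval from 0.19 to 1.32 (edgeR adjusted p = 0.0706). Aldh1l1 was at 4.80 ± 0.055 and 4.34 ± 0.697 FPKM (SD, n = 3, edgeR adjusted p = 0.511), and Aldh1l2 at 0.267 ± 0.025 and 0.277 ± 0.055 (edgeR adjusted p = 0.916). The retinaldehyde dehydrogenase genes Aldh1a1 and Aldh1a2 had at most 3 and 5 counts in a library, Aldh1a3 at most 1 and Aldh3a1 at most 2, too few for a test. Aldh1a7, Aldh3b2 and Aldh8a1 were listed in no library.

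The upstream regions of the members that passed beside Aldh2 are shown because their expression differed between the genotypes. RefSeq windows (GRCm38.p6) of 250 bases before an annotated start were found for 8 of the 10 members, in 9 windows, since Aldh6a1 has 2 annotated starts. None was found for Aldh2 and Aldh7a1. They are read 5′ to 3′ on the gene's strand, and capitals mark each match to the motifs searched on both strands: the GC box GGGCGG, the CCAAT box CCAAT, the E-box CACGTG, the TATA box TATAAA, the antioxidant response core TGACNNNGC and GAGGAA, the core of PU.1 sites. The Aldh6a1 windows lie at chr12:84451025-84451274 and chr12:84448318-84448567, and that of Aldh3b1 at chr19:3929779-3930028, each on the minus strand.
Aldh6a1, upstream start: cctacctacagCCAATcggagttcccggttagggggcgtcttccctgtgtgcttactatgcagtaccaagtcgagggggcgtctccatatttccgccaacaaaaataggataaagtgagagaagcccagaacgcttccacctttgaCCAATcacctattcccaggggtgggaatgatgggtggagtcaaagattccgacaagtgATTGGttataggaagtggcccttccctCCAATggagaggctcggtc
Aldh6a1, downstream start: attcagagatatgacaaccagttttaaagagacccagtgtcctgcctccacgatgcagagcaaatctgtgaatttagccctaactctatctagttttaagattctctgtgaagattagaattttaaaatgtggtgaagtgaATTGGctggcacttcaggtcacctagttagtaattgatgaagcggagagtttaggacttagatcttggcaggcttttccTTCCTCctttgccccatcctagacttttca
Aldh3b1: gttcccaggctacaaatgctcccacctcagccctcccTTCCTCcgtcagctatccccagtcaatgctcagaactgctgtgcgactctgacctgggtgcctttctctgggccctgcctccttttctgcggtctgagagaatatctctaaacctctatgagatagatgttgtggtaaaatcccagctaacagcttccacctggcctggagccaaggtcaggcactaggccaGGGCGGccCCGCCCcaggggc

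The upstream Aldh6a1 window held 4 matches to the CCAAT box and none to the other motifs, and the downstream one held 1 CCAAT box and 1 PU.1 core. The Aldh3b1 window held 2 GC boxes next to each other close to the start, and 1 PU.1 core. No motif was shared by all 3 windows. Over the 9 windows, the CCAAT box was in 6 and the GC box in 5, against 33.8% and 32.7% of all 32851 windows of this length. The E-box was in 2 (6.02% of all), the PU.1 core in 3 (23.3%), the antioxidant response core in 1, that of Aldh9a1 (10.2%), and the TATA box in none (12.4%). Matches describe letters in these windows and do not show that a factor binds there.

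Enzymes that handle aldehydes by other routes changed in both directions. Of 15 tested genes that reduce or oxidise aldehydes, 5 rose, 3 fell and 7 did not pass (7.42% rose and 6.88% fell over all genes), with a median log2 fold change of 0.04 beside 0.00 over all genes. Akr1b10 and Akr1b3, aldo-keto reductases of the aldose reductase group, fell from 54.3 ± 1.08 to 34.5 ± 3.59 FPKM (edgeR adjusted p = 5.05e-07) and from 111 ± 3.22 to 90.2 ± 3.23 (edgeR adjusted p = 0.000251), while Akr1b8 of the same group rose from 3.40 ± 0.140 to 5.79 ± 0.800 (SD, n = 3). Akr1c12 fell from 16.9 ± 2.00 to 12.0 ± 0.445 FPKM and its neighbour in sequence Akr1c13 rose from 28.1 ± 3.42 to 35.9 ± 0.238. These Akr1 genes carried fractional counts, so some of their reads were divided between genes and their single values are uncertain. With which genes the reads were shared is not shown. Fractional counts were found in 23.2% to 23.6% of the genes with counts in a library, among them Gstm1, Acss1 and Glul, named below. Xdh, xanthine dehydrogenase, rose from 21.7 ± 0.794 to 25.5 ± 1.51 FPKM, and the aldehyde oxidase gene Aox1 from 0.257 ± 0.094 to 0.560 ± 0.035. DESeq2 did not call Aox1 (adjusted p = 0.0865), nor did edgeR without LKO replicate 3 (adjusted p = 0.0718) or without DKO replicate 1 (0.0514). Cbr3, a carbonyl reductase, rose from 9.50 ± 0.387 to 12.3 ± 2.20 FPKM (edgeR adjusted p = 0.0449), a call that 10 of the 13 alternative fits did not make, among them each edgeR fit without 1 library except that without DKO replicate 2. Limma without a filter did not call Akr1c13 (adjusted p = 0.0683) or Xdh (adjusted p = 0.0695).

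Genes of glutathione conjugation and lipid peroxide control rose in 3 of 6 tested members and fell in none (7.42% and 6.88% over all genes), with a median log2 fold change of 0.15 beside 0.00 over all genes. Gstm1, a glutathione transferase, had 37.21, 40.16 and 40.80 FPKM in LKO and 60.59, 54.83 and 57.97 in DKO (log2 fold change 0.56 ± 0.06 SE, edgeR adjusted p = 8.57e-07). Mgst1, a microsomal transferase, had 26.98, 28.71 and 28.51 FPKM in LKO and 37.58, 37.68 and 43.01 in DKO (log2 fold change 0.50 ± 0.07 SE). Abcc1, an exporter of glutathione conjugates, was at 36.4 ± 0.592 and 41.3 ± 1.46 FPKM (log2 fold change 0.19 ± 0.04 SE). In all 3 the groups did not overlap, a pattern found in 29.6% of the genes tested. The groups of Gstp1, from the same list, were also apart, but with DKO lower. It was at 124 ± 3.24 and 113 ± 7.98 FPKM and did not pass (log2 fold change −0.13 ± 0.06 SE, edgeR adjusted p = 0.161). Gsta4, the transferase known for 4-hydroxynonenal, was at 0.067 ± 0.058 and 0.097 ± 0.095 FPKM and was not tested.

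Around acetaldehyde, 1 of 4 tested genes rose and 1 fell, beside 7.42% and 6.88% of all genes. Cat, catalase, which can oxidise ethanol, rose from 215 ± 4.58 to 258 ± 3.74 FPKM (SD, n = 3, edgeR adjusted p = 4.26e-05). Acss1, the mitochondrial enzyme that activates acetate, fell from 15.1 ± 1.20 to 12.1 ± 0.480 (edgeR adjusted p = 0.00242), a call that limma without a filter did not make (adjusted p = 0.0593). The ethanol enzymes that make acetaldehyde in liver were near absent, with Adh1 at 0 in LKO and 0.023 ± 0.040 FPKM in DKO and Cyp2e1 at 0.230 ± 0.159 and 0.113 ± 0.081, while Adh5, which handles formaldehyde bound to glutathione, was at 31.8 ± 2.20 and 29.0 ± 2.15 (edgeR adjusted p = 0.279).

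The pathways in which single members act are given by their counts, beside the 14.3% of all genes that passed. None of 13 tested genes of valine breakdown and propionate use passed beside the lower Aldh6a1, and their median log2 fold change was −0.03. Hibadh, which makes the semialdehyde that feeds ALDH6A1, was at 33.6 ± 1.96 and 34.4 ± 3.82 FPKM (edgeR adjusted p = 0.772). Of 7 proline and glutamate genes, Glul, glutamine synthetase, rose from 89.5 ± 1.90 to 111 ± 3.50 FPKM and 6 did not pass. In fatty aldehyde metabolism, Agmo, which cleaves ether lipids to fatty aldehydes, rose from 1.23, 1.71 and 1.55 to 2.11, 2.97 and 1.99 FPKM (edgeR adjusted p = 0.0271) and Far1, which reduces fatty acids, fell from 18.9 ± 2.09 to 16.3 ± 0.274 (edgeR adjusted p = 0.046). Neither was called by DESeq2 (adjusted p = 0.156 and adjusted p = 0.107), and 7 of 9 genes did not pass. In edgeR, Agmo was not called without LKO replicate 1 (adjusted p = 0.114), LKO replicate 3 (0.0603) or DKO replicate 2 (0.207), and Far1 was called only when LKO replicate 3 was the library left out (otherwise adjusted p = 0.0756 to 0.227). Neither the 2 tested genes of lysine breakdown nor the 2 tested genes of carnitine, Tmlhe of its synthesis and Slc22a5 of its uptake, passed. Aass, which acts at the start of lysine breakdown, and Bbox1, at the end of carnitine synthesis, were listed in no library.

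**Figure D4:**
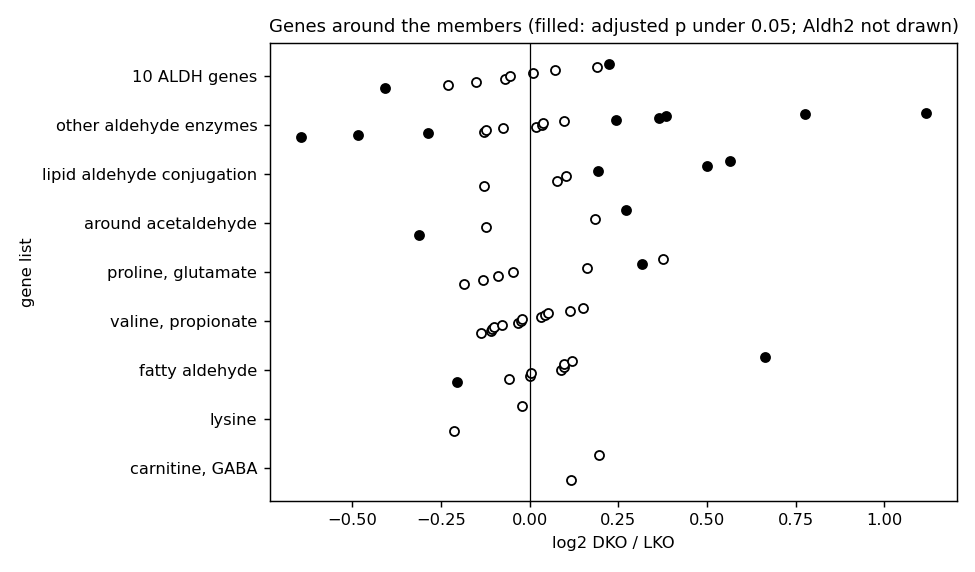
Log2 fold change of DKO over LKO (horizontal axis) of each tested gene in the lists around the members (vertical axis, Aldh2 left out); filled points have an edgeR adjusted p under 0.05. All 13 points of the valine list are open, and the other aldehyde enzymes have filled points on both sides of 0.

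The genes whose levels followed Aldh2 most closely over the 6 libraries, by Pearson's r of log2(FPKM + 1), were Chil1 (r = 0.999), Ly86 (0.998), Ctse (0.998), Slc35g1 (0.997) and Sorl1 (0.997). All 5 had lower means in DKO, with log2 fold changes from −4.18 (Ctse) to −0.13 (Slc35g1, which did not pass, edgeR adjusted p = 0.0653). With 2 groups that far apart in Aldh2, r mainly records the step between the genotypes and is given as a description.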

How the data were processed

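RNA sequencing was available for 3 LKO and 3 DKO libraries, grouped by their titles. Per the file headers, each deposited file lists NCBI gene numbers with their expected count, FPKM and transcript length. The authors' expected counts estimate the reads of a gene and carry no scaling for depth. FPKM values are those deposited by the authors, a unit scaled by definition to transcript length and library size. The submitters' processing notes name Bowtie 0.12.2 and build mm8. How reads were counted, and whether by strand, is not given in the sources used here. Reads of overlapping antisense genes may be mixed. Genes missing from a file were taken as 0, and the lowest listed FPKM was 0.01. Whether a gene listed in no library was part of the authors' annotation was not checked.

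Symbols came from a RefSeq table of GRCm38 (16832 of 16871 gene numbers matched). Rounded counts went through the quasi-likelihood test of edgeR 4.0.16 in R 4.3.3 (filterByExpr, TMM, no block) and Benjamini-Hochberg adjustment over 11809 genes at 0.05. Intervals and standard errors were derived from the unshrunk fold change and the F statistic. In simulated data made to resemble the DKO and LKO libraries (11794 genes), edgeR recovered 68% of genes changed 1.25-fold and 96% of those changed 1.5-fold. Differences under 1.25-fold are thus often missed. The changed genes were drawn only from genes with ample counts, and all genes were given the same variability. Recovery for genes with few counts, such as Aldh5a1, Aldh1l2 and Aox1, or for more variable genes was not tested. Counting error for a gene is the square root of its mean count, and covers counting only, since reads without molecular identifiers may be duplicates.

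Replicates differed by more than sampling noise (chi-square per degree of freedom at least 1.68), so none was merged with another as a repeat deposit. This does not show that they came from separate cultures. The named genes are the 10 members, further ALDH genes with a read, the members of each list that passed or had the 4 smallest p, and the most abundant markers. Hibadh, Gsta4, Adh1, Cyp2e1, Aass and Bbox1 were named after their values were seen. A few listed genes were left out and are not reported here. The members and lists were chosen with earlier results of these data known. Alternatives were DESeq2 1.42.0, other size factors, no count filter, a replicate block, limma 3.58.1 on log2(FPKM + pseudocount) and leaving out each library.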

Additional observations from a re-analysis of the deposited data

How the results depend on the processing

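Of 44 single genes other than Aldh2 followed through 13 alternative fits, 525 of 566 values kept their direction and their side of the threshold, 36 lost a call and 5 turned sign. The log2 fold change of Aldh2 stayed between −5.06 and −4.89 over all fits, and between −5.02 and −4.98 when single libraries were left out. The sign turned only for Aldh16a1, Aldh1l2 and Dlst (of the lysine list), none of them called, when a library was left out: their log2 values ranged from −0.0243 to 0.0719, −0.1005 to 0.1683 and −0.0432 to 0.0046. The count of genes called over the whole table was 1689 and fell to 1119 in limma with a pseudocount of 0.1 (557 higher) and to 807 in limma without a filter (425 higher, 382 lower). Limma with a pseudocount of 1 called 561 higher genes, and DESeq2 called 539 lower. Same-numbered libraries did not deviate together (correlations of their deviations −0.06 to 0.02), so the numbers were not taken to pair them. With the replicate block 1553 genes were called and the same 3 members, and the block ended 1 call among the genes named, that of Far1 (edgeR adjusted p = 0.0624). Leaving out single libraries gave 1175 to 1481 calls. The cause of these differences was not tested. Among the members, depth limits Aldh18a1 (mean of 144 and 123 counts) and Aldh1b1 (178 and 161) most, whose intervals are the widest.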
